A study of Rattus norvegicus with 5 samples.

Results

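The 39 genes described here encode the glutathione, thioredoxin and peroxide-handling enzymes of INS-1, an insulin-producing cell line from a rat insulinoma, together with the oxidant-sensing pair Nfe2l2 and Keap1. They were chosen by gene symbol from the array's annotation, and the rule uses no measured value. Of the 39 symbols, 38 had a probe set of their own, 42 probe sets in all, out of 10411 genes and 15866 probe sets on the array. Prdx1 was matched only by a probe set that it shares with a gene of near-identical name, and no value is given for it.

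Total RNA of 5 cell populations was hybridised to 1 rat expression array each. Set 5-3 comprised clones 14 and 19, set 1-1 comprised clones 2 and 16, and the parental INS-1 line had 1 array. A clone's full name, as the plots give it, is its set, a point and its number. All 4 clones are FLP-In T-REx derivatives of INS-1 that hold an FRT site, where a gene can be placed by Flp recombinase, and express the tetracycline repressor. The labels name no introduced gene for these arrays, do not say whether tetracycline was given, and leave the origin of the clones within a set unstated. Each value therefore came from 1 clone, and the spread between clones of a set (SD, n = 2) is the only replicate error.

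Signals are linear and in arbitrary units, scaled to a trimmed mean of 1000 on every array, with medians of 342.4 to 371.6. Because a signal depends on the probes, levels of different probe sets were not ranked against each other. Probe sets with a mean level above about 194 were tested. The filter passed 34 of the 38 genes, and 28 with the limit at the 60th percentile. All 11 beta cell markers with a probe set, out of 13 listed, were bright enough to test, at 1030.6 to 42217.0, whereas 1 of 9 acinar and ductal markers, 2 of 11 fibroblast, endothelial and leukocyte markers and 2 of 6 hepatocyte markers were. The summed signal of the beta cell markers was 142480 in clone 14, 151869 in clone 19, 176008 in clone 2 and 123732 in clone 16, against 180173 in the parental line. Of the 11 markers 9 had a lower clone mean and 2 a higher one, where 52.6% of all tested genes had a higher one. The insulin gene Ins2 read 3952.8 in clone 14, 4302.7 in clone 19, 30224.0 in clone 2 and 5380.8 in clone 16, against 28816.1 in the parental line. Poly(A) control RNAs were 1.38 to 3.94-fold brighter on the parental array than on the clone arrays, and the hybridisation controls stood there at 0.74 to 0.82 of their clone level. The part of these control differences in the comparisons with the parental line was not tested.

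As background, glutathione is a small thiol made in the cytosol by glutamate-cysteine ligase and glutathione synthetase. Glutathione transferases couple it to reactive compounds, and glutathione reductase returns its oxidised form to use at the cost of NADPH. Thioredoxin reductase keeps thioredoxin reduced, thioredoxin serves the peroxiredoxins, and many of these genes are targets of the transcription factor NRF2, which KEAP1 holds in check. Pancreatic beta cells are known for low levels of antioxidant enzymes, catalase and glutathione peroxidase among them.

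Signals differed widely between the probe sets of the member genes, which does not rank the genes by amount of RNA. Txn1, the cytosolic thioredoxin, gave 27799.1 in clone 14, 25389.8 in clone 19, 27241.1 in clone 2 and 22453.2 in clone 16, against 23884.2 in the parental line. Sod1, the copper-zinc superoxide dismutase, stood at 21377.7 and 21874.3 in set 5-3 and at 20140.8 and 15471.1 in set 1-1, against 18959.9 in the parental line. These were the 2 genes with signals above 10000 on all 5 arrays. At the other end lay 3 genes with signals below 100 on all arrays. One was Gpx1, the cytosolic glutathione peroxidase, at 73.7 and 11.9 in set 5-3 and 29.7 and 26.6 in set 1-1, against 23.1 in the parental line. The others were Gpx3, the secreted peroxidase, at 30.3 to 48.4, and Gstp1, the pi-class transferase, at 20.5 to 40.2. The fourth gene under the brightness limit was Gstm2, a mu-class transferase, at 66.8 to 103.0. No detection calls were used, so these 4 could not be told from background and enter no comparison.

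**Figure D1:**
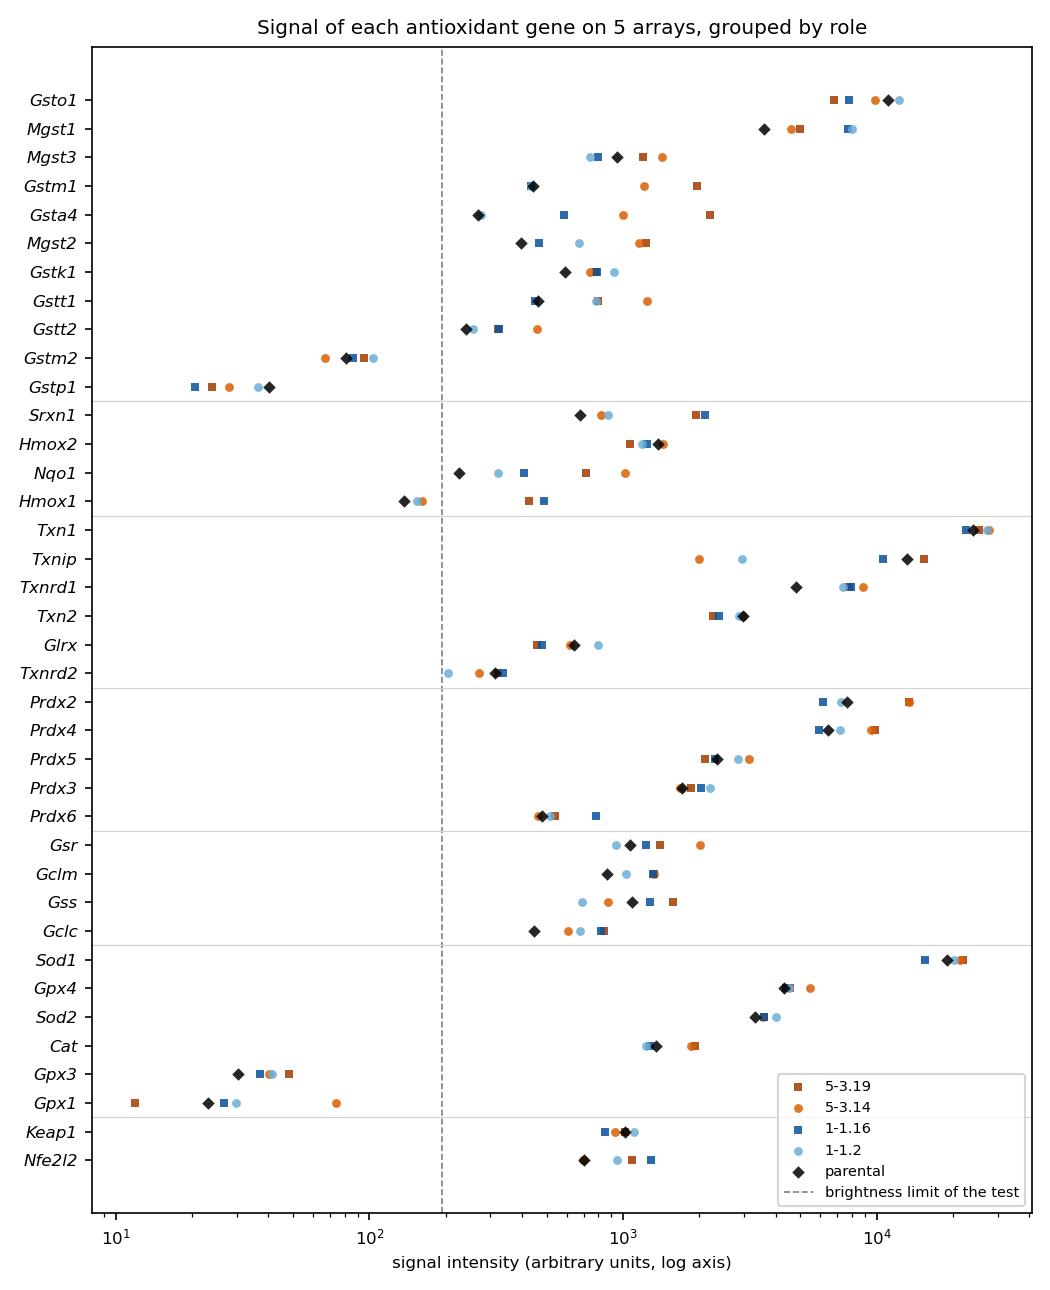
Signal (arbitrary units, log axis) of each member gene on the 5 arrays, grouped by role, 1 point per array; the dashed line is the brightness limit of about 194. Txn1 and Sod1 lie above 10000 on every array, and Gstp1, Gpx1 and Gpx3 lie below 100 on every array.

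Other peroxide and superoxide enzymes were well above the limit. Gpx4, which reduces lipid hydroperoxides, gave 4317.4 to 5445.0, and Sod2, the mitochondrial superoxide dismutase, gave 3318.3 to 4024.3. Cat, which encodes catalase, gave 1227.8 to 1918.8. Among the 34 tested genes, 12 had at least 2-fold between their highest and lowest array, while 25.9% of all tested genes did. The median ratio of highest to lowest signal was 1.82 for the 34 genes and 1.64 for all tested genes.

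The first comparison asked how the 4 engineered clones differed from the line they came from. No gene of the 34 passed the test. In RNA from whole cultures, fewer expressing cells and less RNA per cell cannot be told apart. On average over the clones 26 of the 34 had a higher signal than on the parental array, 76.5%, where 52.6% of all 6944 tested genes did. In all 4 clones 13 were higher, 38.2%, against 19.1% of all tested genes. Only Txn2, the mitochondrial thioredoxin, was lower in all 4, or 2.94%, where 18.3% of all tested genes were. All 4 differences of a gene subtract 1 parental array and are not independent. The median difference over the 34 genes was 0.26 on the log2 scale, and over all tested genes it was 0.02. Per clone the median was 0.32 in clone 14, 0.39 in clone 19, 0.15 in clone 2 and 0.11 in clone 16.

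In limma's fit with the 4 clones as 1 group, no member probe set of 38 was called at an adjusted p of 0.05, and neither was any of the 9520 tested (0.0%). At an unadjusted p under 0.05 limma found 349 of the 9520 probe sets and 1 of the 34 genes, Txnrd1. The fit has 3 residual degrees of freedom and takes the parental array to vary as the clones do. Its error is the spread over all 4 clones, so a difference between the sets counts as error and widens the SE. A fit with 3 groups, which leaves that difference out of the error, called 0 probe sets as well. Fold changes here and below are on the scale of log2(signal + 21.8), which understates differences of dim genes.

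**Figure D2:**
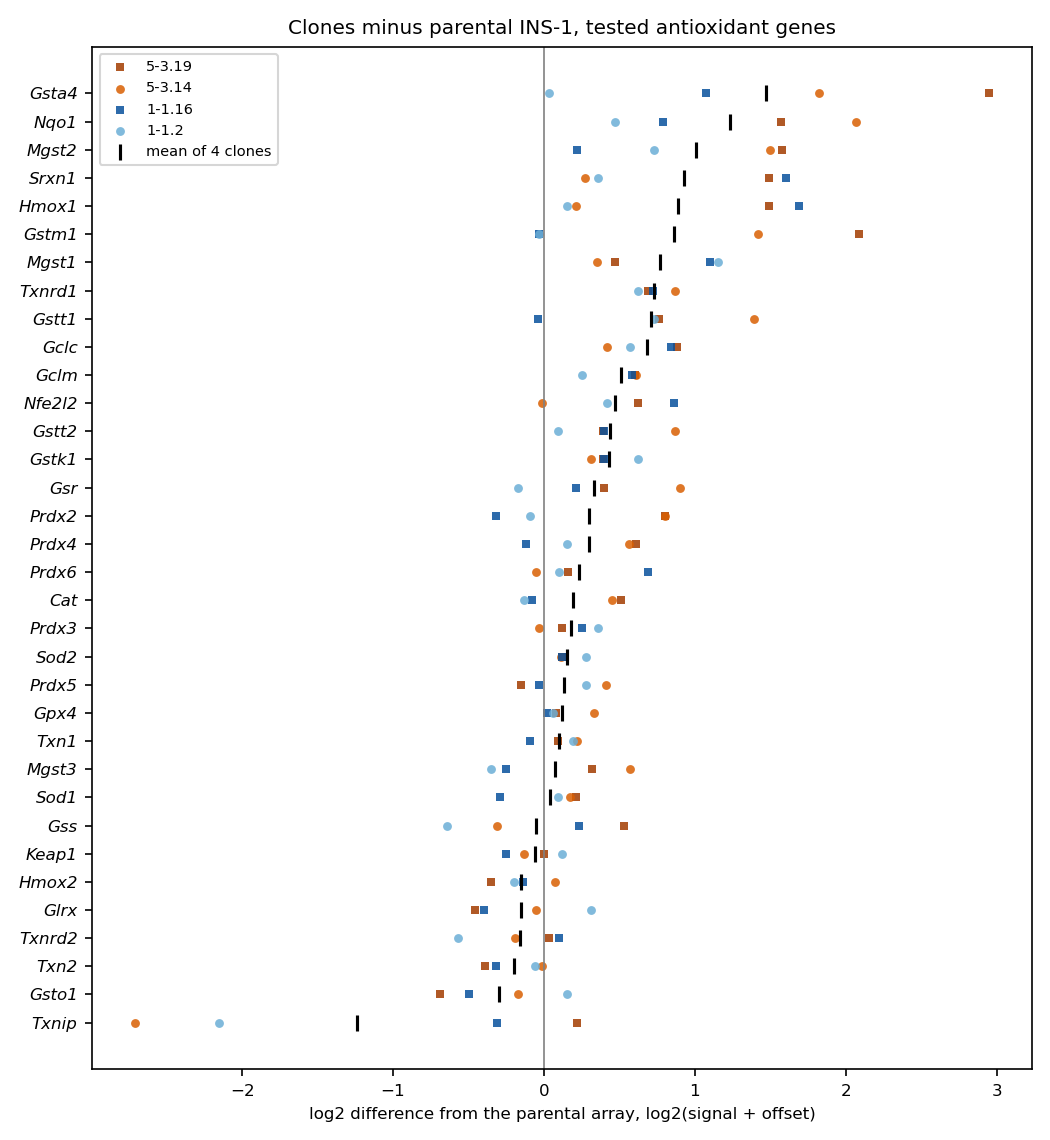
Log2 difference of each clone from the parental array for the tested members, ordered by their mean; points are single clones and the tick is their mean. Nqo1, Txnrd1, Mgst2 and Gclc lie to the right of 0 in all 4 clones, and Txnip is spread from −2.71 in clone 14 to 0.22 in clone 19.

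Of the regulators, Nfe2l2 encodes NRF2 itself. Its signal was 695.9 in clone 14, 1085.3 in clone 19, 945.6 in clone 2 and 1291.4 in clone 16, against 699.4 in the parental line. Clone 14 thus lay at the parental level and the other 3 clones above it. Keap1, the adaptor that directs NRF2 to degradation, gave 850.7 to 1104.7 with 2 clones on each side of the parental value of 1016.7, its difference in clone 19 rounding to 0.00 on the log2 scale. Its dimmer probe set gave 228.3 to 383.4.

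The glutathione synthesis and reduction group had 4 tested genes, of which 3 had a higher clone mean and 2 were higher in all 4 clones. Among all tested genes the shares were 52.6% and 19.1%. Gclc, the catalytic subunit of glutamate-cysteine ligase, gave 605.8 in clone 14, 841.8 in clone 19, 674.5 in clone 2 and 815.2 in clone 16, against 446.6 in the parental line. Every clone lay above the parental array, with a fitted difference of 0.68 ± 0.30 (SE, log2), or 1.6-fold, which limma did not call (adjusted p = 1.0). A second probe set for Gclc gave 0.57 on the same scale. Gclm, the modifier subunit of the same enzyme, stood at 1329.8 and 1320.3 in set 5-3 and at 1031.3 and 1307.0 in set 1-1, against 865.0 in the parental line. The promoter window of Gclm is shown because the gene was higher in all 4 clones and the window holds a match to the antioxidant response element, the DNA motif bound by NRF2 with small MAF proteins. Its 300 bases run from 250 before to 50 after the transcription start in RefSeq's GRCr8 annotation, at chr2:213031885-213032184 on the plus strand. Capitals mark the match, which reads TGACTAAGC on the opposite strand, 172 bases before the start.
Gclm: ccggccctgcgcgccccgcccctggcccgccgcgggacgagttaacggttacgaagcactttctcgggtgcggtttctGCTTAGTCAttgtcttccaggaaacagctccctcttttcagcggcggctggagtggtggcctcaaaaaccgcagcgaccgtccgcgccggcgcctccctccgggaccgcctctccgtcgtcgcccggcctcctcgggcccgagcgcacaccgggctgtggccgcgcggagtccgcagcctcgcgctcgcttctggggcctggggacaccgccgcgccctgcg

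Gss, glutathione synthetase, was not on 1 side of the parental array, at 872.4 and 1572.3 in set 5-3 and 690.1 and 1278.0 in set 1-1, against 1085.4 in the parental line. Gsr, glutathione reductase, was highest in set 5-3 and is described with the clone sets.

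Glutathione transferases gave 9 tested genes out of 11 symbols. Of these, 8 had a higher clone mean and 5 were higher in all 4 clones, where 52.6% and 19.1% of all tested genes were. Their median difference was 0.71. Mgst2, a microsomal member that also makes leukotriene C, had 1159.1 in clone 14, 1226.9 in clone 19, 672.8 in clone 2 and 465.6 in clone 16, against 396.3 in the parental line. The fitted difference was 1.01 ± 0.54 (SE, log2), or 2.01-fold (limma adjusted p = 1.0). Mgst1, the abundant microsomal transferase, had 4581.0 and 4978.5 in set 5-3 and 7990.3 and 7730.0 in set 1-1, against 3588.8 in the parental line. Here too all 4 clones were above the parental array, by 0.77 ± 0.36 (SE, log2), or 1.7-fold (limma adjusted p = 1.0), and set 1-1 was the higher of the sets.

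Gsta4, an alpha-class transferase that conjugates the lipid peroxidation product 4-hydroxynonenal, had the widest range of the tested members, at 8.26-fold between its highest and lowest array. It read 1000.1 in clone 14, 2209.6 in clone 19, 274.2 in clone 2 and 583.7 in clone 16, against 267.4 in the parental line. Clone 2 was within 0.03 of the parental array on the log2 scale, so its place among the genes higher in all 4 clones rests on that small difference. The fitted difference of 1.47 ± 0.94 (SE, log2), or 2.76-fold, was not called by limma (adjusted p = 1.0), and was 0.97 without clone 19. Gstk1, the kappa-class enzyme, and Gstt2, a theta-class enzyme, were also higher in all 4 clones, with log2 differences of 0.43 and 0.44. Gsto1, the omega-class transferase, gave the one negative mean of the class, −0.30, with signals of 6819.1 to 12252.9.

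In the thioredoxin system, Txnrd1 carried the lowest unadjusted p of the members in this comparison. This gene encodes the cytosolic thioredoxin reductase, a selenoprotein. It read 8812.9 in clone 14, 7750.3 in clone 19, 7388.8 in clone 2 and 7926.3 in clone 16, against 4801.4 in the parental line. The clone mean was 7970 ± 605 (SD, n = 4), and the lowest clone exceeded the parental array. The fitted difference was 0.73 ± 0.20 (SE, log2), or 1.65-fold, with an unadjusted p of 0.00843 and an adjusted p of 1.0 by limma. A second Txnrd1 probe set gave 6639.1 and 5617.5 in set 5-3 and 4819.0 and 6494.2 in set 1-1, against 3301.8 in the parental line, a difference of 0.82 ± 0.25 (SE, log2). Both probe sets thus put every clone above the parental line. The table holds a pair of start sites for Txnrd1 on the minus strand, and the window with a match is shown because the gene had the lowest p of the members. It lies at chr7:22755855-22756154, and the capitals mark a match that reads TGACAAAGC on the opposite strand, 78 bases before the start.
Txnrd1: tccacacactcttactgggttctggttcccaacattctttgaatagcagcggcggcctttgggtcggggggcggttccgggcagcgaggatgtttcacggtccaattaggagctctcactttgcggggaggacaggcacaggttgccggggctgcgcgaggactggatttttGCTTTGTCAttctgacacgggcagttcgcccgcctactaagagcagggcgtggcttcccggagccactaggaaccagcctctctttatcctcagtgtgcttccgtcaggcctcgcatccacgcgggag

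Txn1 and Txn2 varied by 1.24-fold and 1.32-fold between their highest and lowest arrays. Txn2 gave 2967.3 and 2261.4 in set 5-3 and 2859.6 and 2379.7 in set 1-1, against 2979.5 in the parental line, so clone 14 differed from it by −0.01 on the log2 scale. Txnrd2, the mitochondrial reductase, was dim, at 203.9 to 337.5. The probe sets of Glrx, the cytosolic glutaredoxin, disagreed: the brighter gave a mean difference of −0.15 and the dimmer 0.51.

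Nqo1, the NAD(P)H quinone reductase, is a classical NRF2 target. It stood at 1016.7 in clone 14, 713.4 in clone 19, 321.8 in clone 2 and 405.9 in clone 16, against 225.7 in the parental line. No clone reached down to the parental value, and set 5-3 lay above set 1-1. The fitted difference was 1.23 ± 0.59 (SE, log2), or 2.34-fold (limma adjusted p = 1.0). Srxn1, sulfiredoxin, restores over-oxidised peroxiredoxins and read 821.9 in clone 14, 1942.9 in clone 19, 873.3 in clone 2 and 2099.1 in clone 16, against 676.3 in the parental line. Hmox1, the inducible heme oxygenase, read 161.7 in clone 14, 424.3 in clone 19, 154.2 in clone 2 and 488.4 in clone 16, against 136.6 in the parental line. For both genes 1 clone of each set was far above its sister, while the dimmer sister stayed near the parental array. The differences over 4 clones were 0.93 ± 0.58 for Srxn1 and 0.89 ± 0.67 for Hmox1 (SE, log2), with limma adjusted p-values of 1.0. Hmox2, the constitutive heme oxygenase, gave 1070.0 to 1440.5.

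Peroxiredoxins reduce peroxides with electrons from thioredoxin. All 5 that were tested had a higher clone mean and none was higher in all 4 clones, where 52.6% and 19.1% of all tested genes were. The median difference was 0.23. Prdx4, the form of the endoplasmic reticulum, read 9537.8 and 9854.7 in set 5-3 and 7155.7 and 5937.8 in set 1-1, against 6443.1 in the parental line. Prdx3 and Prdx5, found in mitochondria, gave 1673.6 to 2194.2 and 2112.2 to 3139.1. Prdx6, which draws on glutathione, gave 463.3 to 785.9.

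The antioxidant response element core was searched in the promoter table as TGACNNNGC or TGATNNNGC on both strands. A match occurred in 9 of the 36 windows of the 32 genes in the table, 25.0%, and in 19.0% of all 33469 windows. The matched genes were Gclm, Gstp1, Hmox2, Nfe2l2, Prdx1, Prdx4, Prdx5, Sod2 and Txnrd1. The overlapping AP-1 motif TGACTCA, searched on both strands as well, was present in 5 member windows, 13.9%, and in 4.63% of all windows. Srxn1 is shown for contrast, since its window held no match to the core within these letters and 2 to the AP-1 motif, in capitals as TGAGTCA, 62 and 5 bases before the start. The window lies at chr3:161064562-161064861 on the plus strand.
Srxn1: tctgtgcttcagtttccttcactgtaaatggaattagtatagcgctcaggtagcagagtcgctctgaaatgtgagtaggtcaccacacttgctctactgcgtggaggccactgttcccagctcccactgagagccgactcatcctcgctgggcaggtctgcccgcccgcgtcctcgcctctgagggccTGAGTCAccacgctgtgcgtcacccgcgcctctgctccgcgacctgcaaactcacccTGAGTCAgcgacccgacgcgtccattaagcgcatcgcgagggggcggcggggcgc

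Taken 1 at a time, the clones differed from the parental line at 2-fold or more in few members. In clone 14 these were Gsta4, Gstm1, Gstt1, Mgst2 and Nqo1 above the parental array, 5 of 34 or 14.7%, where 3.4% of all tested genes were. Txnip was below it, 1 of 34, where 5.39% of all tested genes were. In clone 19 there were 6 higher, or 17.6% (Gsta4, Gstm1, Hmox1, Mgst2, Nqo1 and Srxn1), and 0 lower, against 2.66% and 2.59% of all tested genes. In clone 2 there was 1 higher, Mgst1, and 1 lower, Txnip, 2.94% each, against 1.71% and 3.44%. In clone 16 there were 4 higher, or 11.8% (Gsta4, Hmox1, Mgst1 and Srxn1), and 0 lower, against 3.43% and 4.41%. These are single arrays, so no test was made. The parental Hmox1 signal, 136.6, was under the brightness limit.

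The second comparison set the 5-3 clones against the 1-1 clones. Both 5-3 clones lay above both 1-1 clones in 13 of the 34 genes, 38.2%, where 21.7% of all tested genes did so. They lay below in 3, Gstk1, Mgst1 and Prdx3, or 8.82%, where 26.1% of all tested genes did. In limma's fit with 3 groups, which leaves 2 residual degrees of freedom, 21 of the 9520 probe sets were called higher in set 5-3, 0.221%, and 19 lower, 0.2%. No member probe set was among them. At an unadjusted p under 0.05 there were 9 of the 34 genes, 26.5%, and 15.8% of all tested genes. The median difference was 0.11 for the members and −0.05 for all tested genes. These p-values measure the spread between the clones within each set. Among markers of other cell types, limma called 1 higher in set 5-3, the fibroblast gene Fn1, which encodes fibronectin. Fn1 read 8221.0 and 6953.0 in set 5-3 and 2314.4 and 2617.8 in set 1-1, with the parental line at 4971.8 (limma adjusted p = 0.0382). The other tested marker of that list was Thy1, and the remaining 9 were under the brightness limit. The dimmer of its tested probe sets read 2017.7 and 1258.6 in set 5-3 and 1249.6 and 877.8 in set 1-1, against 831.7 in the parental line (limma adjusted p = 0.447), while the sets overlapped in the brighter one. The hepatocyte gene Serpina1 read 214.2 and 576.0 in set 5-3 and 177.3 and 165.3 in set 1-1, against 506.0 on the parental array (limma adjusted p = 0.391). Its set 1-1 signals were under the brightness limit. The other tested hepatocyte marker, Ttr, had overlapping sets, at 243.8 and 174.0 in set 5-3 and 207.1 and 282.0 in set 1-1. Its parental signal was 178.1. The part of these markers in the member differences was not tested.

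**Figure D3:**
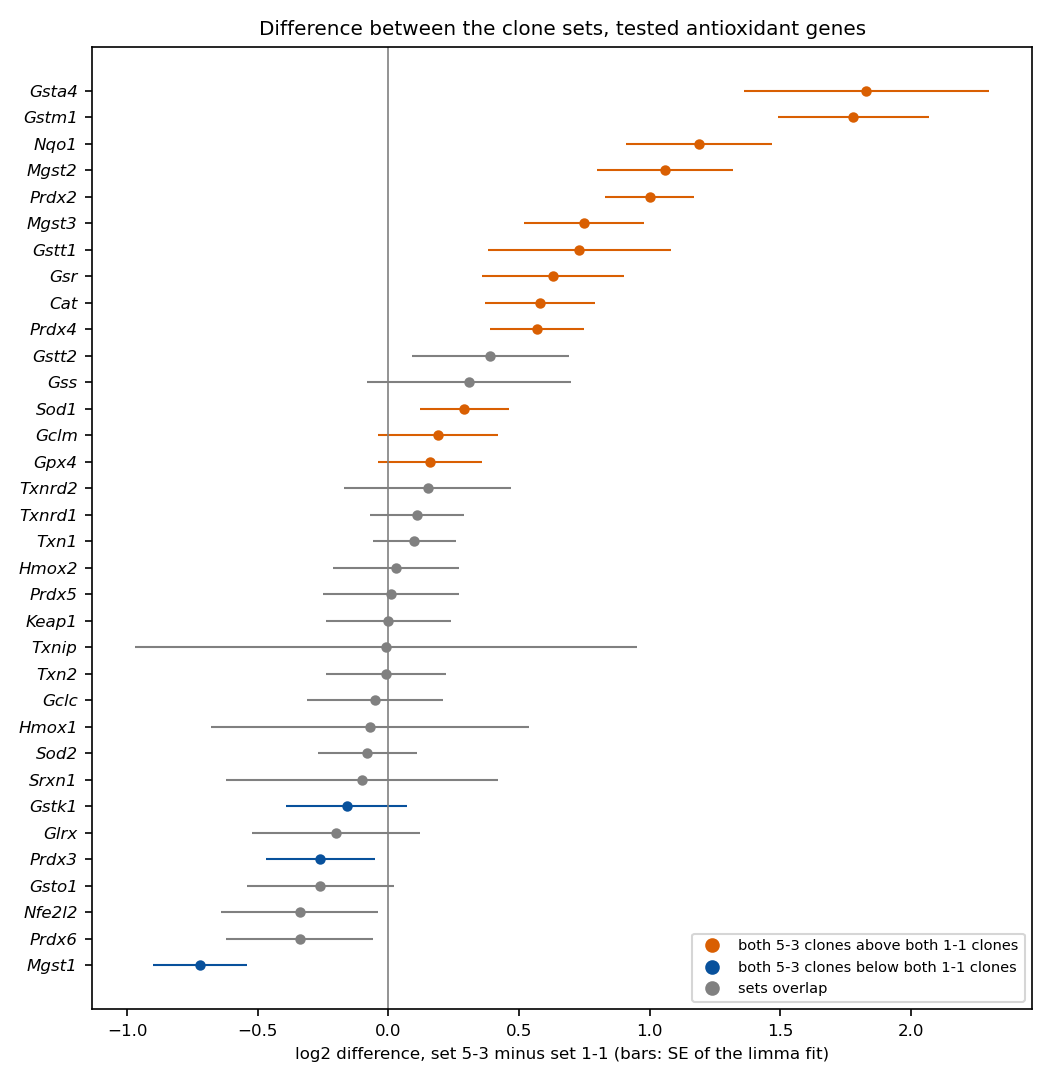
Difference of set 5-3 minus set 1-1 (log2, bars are the SE of limma's fit) for the tested members; orange marks genes with both 5-3 clones above both 1-1 clones, blue the opposite and grey overlapping sets. Gsta4, Gstm1, Nqo1, Mgst2 and Prdx2 lie at 1.00 or above, and Mgst1 at −0.72.

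Gstm1, a mu-class transferase, read 1213.7 and 1953.2 in set 5-3 and 432.9 and 431.9 in set 1-1, with the parental line at 441.0. The set means were 1583 ± 523 in set 5-3 and 432 ± 0.707 in set 1-1 (SD, n = 2 each). The difference was 1.78 ± 0.29 (SE, log2), or 3.44-fold, with a limma adjusted p of 0.0678, the lowest of the members. It crossed the threshold with each array centred on its median, where the difference was 1.82 (limma adjusted p = 0.0438). With no filter it did not (limma adjusted p = 0.133). Without clone 14 the difference was 2.12 and without clone 19 it was 1.44. Either fit leaves set 5-3 with 1 array, so its error comes from the near-equal 1-1 clones alone and no p is given. Mu-class genes are close copies of each other, and cross-hybridisation between them was not tested.

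Gsta4 averaged 1605 ± 855 in set 5-3 and 429 ± 219 in set 1-1 (SD, n = 2 each). The sets did not overlap, and the difference was 1.83 ± 0.47 (SE, log2), or 3.57-fold (limma adjusted p = 0.164). Without clone 14 it was 2.40 and passed (limma adjusted p = 0.0289, range 0.0289 to 0.37). Mgst2 averaged 1193 ± 47.9 in set 5-3 and 569 ± 147 in set 1-1, a difference of 1.06 ± 0.26 (SE, log2), limma adjusted p = 0.151. Mgst3, a microsomal transferase and peroxidase, had 1426.0 and 1193.5 in set 5-3 and 741.0 and 794.4 in set 1-1, with the parental line between them at 950.1. Its difference was 0.75 ± 0.23 (SE, log2), limma adjusted p = 0.205. Mgst1 ran the other way, at 4780 ± 281 in set 5-3 and 7860 ± 184 in set 1-1, a difference of −0.72 ± 0.18 (SE, log2), limma adjusted p = 0.159. The microsomal transferases therefore did not share 1 direction between the sets. Gstt1, the theta-class enzyme, had 1246.0 and 798.7 in set 5-3 and 783.6 and 448.7 in set 1-1, against 463.5 in the parental line. Its sets were separated only by the gap between 798.7 and 783.6, and the difference of 0.73 ± 0.35 had a limma adjusted p of 0.403. The difference was 0.34 without clone 16, 0.41 without clone 14 and 1.12 without clone 2.

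Prdx2, the abundant cytosolic peroxiredoxin, was the most evenly separated of the larger differences. It read 13400.6 and 13359.7 in set 5-3 and 7226.9 and 6140.0 in set 1-1, with the parental line at 7669.8. Both 5-3 clones were thus near-equal and both 1-1 clones slightly under the parental level. The difference was 1.00 ± 0.17 (SE, log2), or 2.01-fold, limma adjusted p = 0.0741. Nqo1 averaged 865 ± 214 in set 5-3 and 364 ± 59.5 in set 1-1, a difference of 1.19 ± 0.28, or 2.28-fold (limma adjusted p = 0.141). Cat had 1848.9 and 1918.8 in set 5-3 and 1227.8 and 1271.7 in set 1-1, with the parental line at 1343.3, and differed by 0.58 ± 0.21, or 1.5-fold (limma adjusted p = 0.257). Gsr read 2004.2 and 1405.1 in set 5-3 and 940.0 and 1229.2 in set 1-1, with the parental line at 1061.4. Its difference was 0.63 ± 0.27 (limma adjusted p = 0.349). It depended on the clone, at 0.38 without clone 14 and 0.89 without clone 19.

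The third comparison was between sister clones, clone 16 against clone 2 in set 1-1 and clone 19 against clone 14 in set 5-3, with 1 array each and no test. In both pairs the same 4 members were at least 2-fold higher in the first-named clone: Gsta4, Hmox1, Srxn1 and Txnip, 11.8% of the 34. For all tested genes the shares were 1.48% in set 1-1, 4.62% in set 5-3 and 0.331% in both pairs at once. No member was at least 2-fold lower in either pair, where 1.17% and 1.79% of all tested genes were. The pairs share no array, but which clone of a pair to name first was decided with the values known. By direction alone the members did not stand apart, since 10 of the 34, 29.4%, were higher in both clone 16 and clone 19 than in their sisters, where 29.6% of all tested genes were. In 7 of the 34, or 20.6%, clone 16 and clone 19 were the 2 highest of the 5 arrays, where 10.4% of all tested genes had that pattern. These were Gclc, Gss, Hmox1, Nfe2l2, Prdx6, Srxn1 and Txnrd2.

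**Figure D4:**
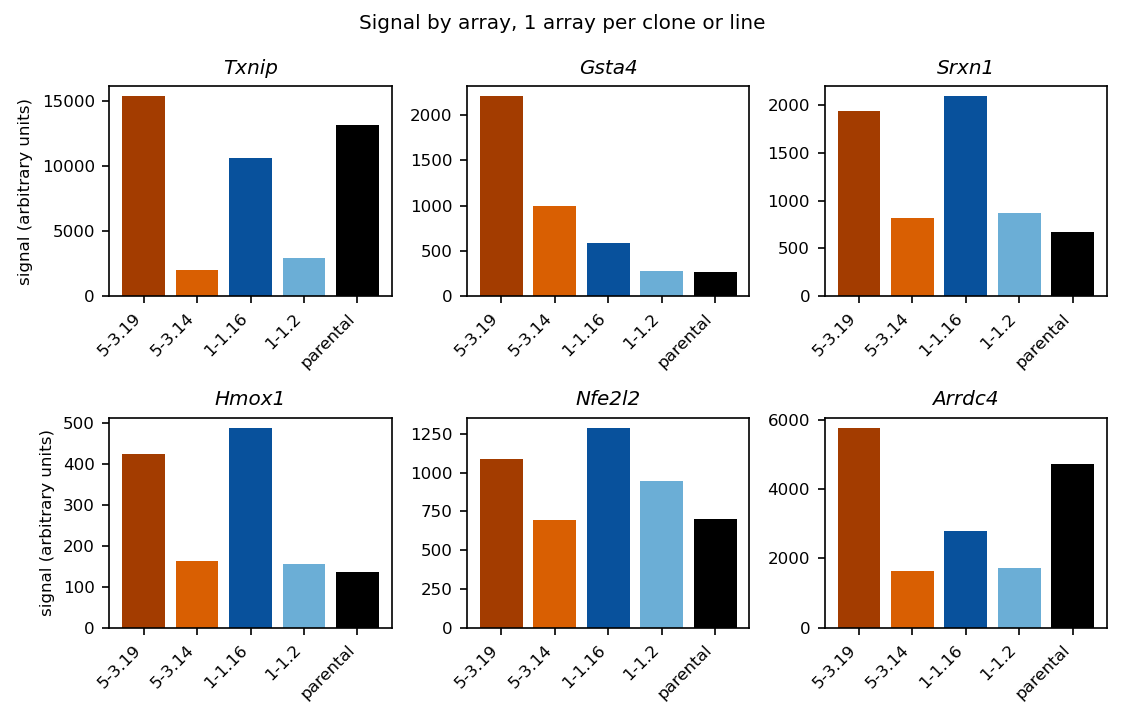
Signal (arbitrary units, axes from 0) of Txnip, Gsta4, Srxn1, Hmox1, Nfe2l2 and Arrdc4 on each of the 5 arrays, 1 bar per array. In all 6 genes clone 19 stands above clone 14 and clone 16 above clone 2, and only for Txnip and Arrdc4 is the parental array above 3 of the 4 clones.

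Txnip, which encodes the thioredoxin-binding protein whose transcription follows glucose through ChREBP and MondoA, differed most of the members between sisters. It is described in full after its values were seen, since it met no criterion for separated groups. Clone 16 had 10607.8 and clone 2 had 2941.5, a ratio of 3.59 on the scale of signal + 21.8. Clone 19 had 15373.2 and clone 14 had 1988.2, a ratio of 7.66. The parental line had 13153.1, so clone 2 and clone 14 stood at 0.225 and 0.153 of the parental signal and the other clones at 0.807 and 1.17 of it. Averaged over the clones the difference from the parental line was −1.24 ± 1.05 (SE, log2) and was −0.75 without clone 14. Between the sets it was −0.01 ± 0.96. Its order of the 5 arrays was shared by 1.27% of all tested genes and by no other member. Among the 7 other tested genes listed as ChREBP and MondoA targets or partners, 1 had that order, Arrdc4, an arrestin-domain relative of Txnip. Arrdc4 read 2784.5 in clone 16 and 1729.9 in clone 2, then 5790.1 in clone 19 and 1639.4 in clone 14, with the parental line at 4743.9.

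On the same scale, Srxn1 was 2.37-fold higher in clone 16 than in clone 2 and 2.33-fold higher in clone 19 than in clone 14. For Hmox1 the ratios were 2.9 in set 1-1 and 2.43 in set 5-3, over signals of clone 2 and clone 14 under the brightness limit. For Gsta4 the ratios were 2.05 and 2.18. Nfe2l2 followed the same direction with smaller ratios, 1.36 in set 1-1 and 1.54 in set 5-3. Gss had ratios of 1.83 and 1.78. Nqo1 did not share the pattern, since it was higher in clone 16 than in clone 2 but lower in clone 19 than in clone 14.

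The genes around these enzymes were followed through pathway lists. Limma called none of their tested genes between the clones and the parental line, and 1 between the sets. In the NADPH supply list, 9 of 12 genes were tested, 7 had both 5-3 clones above both 1-1 clones and 1 had them below, where 21.7% and 26.1% of all tested genes did. The list's median difference between the sets was 0.54. Taldo1, transaldolase of the pentose phosphate pathway, rose in set 5-3, at 9599.6 and 10592.9 in set 5-3 and 3953.8 and 3817.7 in set 1-1, with the parental line at 5196.8. The difference was 1.37 ± 0.18 (SE, log2), limma adjusted p = 0.0434. It missed the threshold with the filter at the 60th percentile, with no filter or with no intensity trend (limma adjusted p = 0.0544, 0.0921 and 0.0783). Over all alternatives, each clone left out included, the difference was 1.3 to 1.44. Idh1, the cytosolic NADPH-forming isocitrate dehydrogenase, had 5021.5 and 5577.1 in set 5-3 and 3178.0 and 2238.0 in set 1-1, with the parental line at 4492.5 (limma adjusted p = 0.144). Pgd, 6-phosphogluconate dehydrogenase, differed by 0.25, and Mthfd1, of folate metabolism, by −0.47.

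Of 12 genes for cystine uptake and glutathione precursors, 3 were tested. Slc1a1, a glutamate and cysteine transporter, had 155.4 and 171.1 in set 5-3 and 541.5 and 564.1 in set 1-1, with the parental line at 505.9. The difference of −1.64 ± 0.25 (SE, log2) was just outside the threshold (limma adjusted p = 0.0611). The Slc1a1 signals of set 5-3 were under the brightness limit and could not be told from background. The size of this difference is therefore uncertain. Chac1, which degrades glutathione, was lower in set 5-3 by the same rule of non-overlapping sets, at 432.1 and 440.2 in set 5-3 and 701.2 and 763.4 in set 1-1 (limma adjusted p = 0.215). Slc3a2, the heavy chain of the cystine exchanger, was higher in all 4 clones, with a log2 difference of 0.71 from the parental line.

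Among 12 tested genes of 23 listed as other targets or partners of KEAP1 and NRF2, 6 had a higher clone mean and 6 a lower one. Their median was 0.12. In every clone 4 of the 12 exceeded the parental array, where 19.1% of all tested genes did. Ugdh, UDP-glucose dehydrogenase, gave 2819.0 in clone 14, 4778.9 in clone 19, 3367.5 in clone 2 and 5479.5 in clone 16, against 1846.7 in the parental line. Its difference was 1.1 ± 0.39 (SE, log2), limma adjusted p = 1.0, and each set's clones stood in the same order as for Srxn1 and Hmox1. Mafk, a small MAF partner of NRF2, differed by 0.33. Blvra, biliverdin reductase, and Gabarapl1, an autophagy protein, had clones on both sides of the parental array and differed between the sets by −0.83 and 0.89 (limma adjusted p = 0.386 and 0.2).

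The other glutathione transferases and peroxidases had 4 of 19 genes tested, all with a lower clone mean and a median of −0.60, so they ran opposite to the transferases described above, without a test of that contrast. Among all tested genes 52.6% had a higher clone mean. Gstm7 had 1769.1 and 2427.4 in set 5-3 and 1319.2 and 923.5 in set 1-1, against 2495.1 in the parental line. Gstz1, which also acts in tyrosine breakdown, had 2638.3 and 1911.0 in set 5-3 and 1870.9 and 1257.6 in set 1-1, against 3077.3 in the parental line. Gstm4 differed from the parental line by −0.04. Of 23 other thiol oxidoreductases, 20 were tested, with 10 higher and 10 lower clone means and a median of 0.00. Both 5-3 clones lay below both 1-1 clones in 8 of the 20, where 26.1% of all tested genes did. They lay above in 2, Sesn1 and Selenop, where 21.7% of all tested genes did. The list's median difference between the sets was −0.16. Sesn1, sestrin 1, a stress-induced regulator, had 1025.5 and 1182.7 in set 5-3 and 287.8 and 141.4 in set 1-1, with the parental line at 1181.0 (2.32 ± 0.34 SE, log2, limma adjusted p = 0.0533). Selenop, the secreted selenium carrier, had 7307.1 and 14684.1 in set 5-3 and 2053.1 and 2690.7 in set 1-1, with the parental line at 10105.3 (limma adjusted p = 0.0678). For both genes the 1-1 clones lay far below the parental array. Nxn and Txndc17, both thioredoxin-like proteins, were higher in all 4 clones by 0.78 and 0.55.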

How the data were processed

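INS-1 total RNA, parental and from 4 clones, was profiled on 5 single-colour rat expression arrays. The values are the authors' linear signal intensities, 1 for each probe set on each array, as deposited. How they were computed, background correction and detection calls included, is not given in the sources used here. With 2% trimmed at either end, array means were 1000.24 to 1000.28, so the arrays were already scaled and were used as deposited. Depth can be described only through signal.

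Of 15923 probe sets, 57 controls were left out. Names came from the platform table given with the data, where 12783 probe sets had 1 symbol, 312 had several and 2771 had none. Values were taken as log2(signal + 21.8), the offset being the 10th percentile of positive signals. The 9520 probe sets with a mean at or above the 40th percentile were tested with limma 3.58.1 in R 4.3.3 (lmFit, eBayes with an intensity trend) and Benjamini-Hochberg adjustment at 0.05 over all of them. The 4 clones were compared with 1 parental array, and set 5-3 with set 1-1 in a fit with 3 groups. Replicate numbers were given in label order and pair nothing. Nothing says that the arrays stand for repeated cultures of a clone, so a p-value measures spread between clones only. The brightest tested probe set stood for a gene in counts.

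Members, pathway lists and tests were chosen with earlier results of these data known. A member was described in full where it was tested and met 1 of 3 criteria. The first was all 4 clones on 1 side of the parental array with a mean difference of at least 0.58 (log2), the second was non-overlapping sets at least 0.58 apart, and the third was 1 array at least 2-fold from every other. Up to 4 genes per pathway list were named, those with the largest difference among genes separated in the same ways. Promoters came from RefSeq's GRCr8 table. Alternatives covered scaling, offset, filter, variance model, probe set choice, fold limit and leaving out each clone. A fit without the parental array was added after seeing the data.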

Additional observations from a re-analysis of the deposited data

Results flagged for a closer look

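Gstm1, Prdx2, Mgst3 and Cat lay above the parental array in both 5-3 clones and below it in both 1-1 clones. The differences of set 5-3 minus set 1-1 were 1.78, 1.00, 0.75 and 0.58 on the log2 scale, and limma's test of them gave adjusted p-values of 0.0678, 0.0741, 0.205 and 0.257, so none passed. For Gstm1 the 1-1 clones were within 0.03 (log2) of the parental array.

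In 2 of the 34 tested members clone 2 lay apart from the other 3 clones. For Gclm it was the lowest, and its gap to the nearest clone was 0.932 of the range over the 4 clones. For Sod2 it was the highest, with a gap of 0.924 of the range. Both exceed the critical value for 4 samples, which chance passes in about 1 group in 20. Because that rate applies to each of the 34 tested members, 2 such gaps are not read as a trait of clone 2. The Sod2 range was narrow, at 3572.6 to 4024.3.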

How the results depend on the processing

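No paired analysis was possible because the replicate numbers follow label order and pair no clones. The differences by which members met a criterion kept their direction under the alternatives run. So did Taldo1 between the sets and Txnip against the parental line. For the clones against the parental line no probe set was called under any alternative. Of the 34 members 26 had a higher clone mean, but 24 with cyclic loess and 25 with quantile normalization, so some members changed sign. The count was 22 with the filter at the 60th percentile and 29 with no filter, which test fewer and more genes. For set 5-3 against set 1-1, probe sets called higher numbered 21, and 6 with the filter at the 60th percentile, 38 with median centring, 7 with no filter, 13 without the intensity trend, 32 with an offset 4 times larger and 31 to 127 when a clone was left out (127 without clone 14). Those called lower numbered 19, and 6, 32 and 3 under the first 3 of these, 32 with the larger offset and 18 to 137 with a clone left out (137 without clone 19, 94 without clone 14). Member probe sets called numbered 0, 1 with median centring (Gstm1), and 0 to 2 with a clone left out. The members' median difference between the sets, 0.11, was 0.14 to 0.25 with a clone left out, the highest without clone 16. Pooled over the 4 clones, 16 member differences were at least 2-fold higher and 2 lower than parental, and 37 and 4 at least 1.5-fold. A gene can enter these counts once per clone, and all of them subtract the same parental array. The share of all tested genes at 1.5-fold is not given here, so the counts show only the effect of the fold limit. Without the parental array 21 and 20 probe sets were called and no member. The causes were not tested. With 1 array per clone, culture-to-culture variation was not measured, and dim probe sets cannot be told from background.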

Other observations

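Of 6 tested genes of 7 listed as loading selenocysteine, the residue of thioredoxin reductases and several glutathione peroxidases, 1 had a higher clone mean and 5 a lower one, with a median log2 difference of −0.13. Of all tested genes 52.6% had a higher clone mean. Secisbp2, which binds the selenocysteine insertion element, and Sephs1 differed by −0.15 and −0.12, Pstk by 0.25 and Sephs2 by −0.14. Sepsecs, the synthase that makes selenocysteine on its transfer RNA, varied more and was chosen after its values were seen. It had 380.1 and 1543.4 in set 5-3 and 1011.2 and 748.7 in set 1-1, against 1290.9 in the parental line, a difference of −0.64 ± 0.65 (SE, log2, limma adjusted p = 1.0). In the list of superoxide, metallothionein and metal handling, 3 of 6 tested genes were higher in all 4 clones, where 19.1% of all tested genes were. Ccs, the copper chaperone of Sod1, had 1776.0 and 1410.6 in set 5-3 and 1397.2 and 1790.3 in set 1-1, against 1010.6 in the parental line. Tfrc, the transferrin receptor, had 5048.4 and 5368.1 in set 5-3 and 7686.4 and 6717.4 in set 1-1, against 3479.5 in the parental line. Slc39a1, a zinc importer, had 651.7, 304.2, 640.9 and 651.5 in clones 14, 19, 2 and 16, against 288.3 in the parental line. Limma called none of these (adjusted p = 1.0).

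Of the 7 tested ChREBP and MondoA genes 6 had a lower clone mean and 1 a higher one, where 52.6% of all tested genes had a higher one. The list's median log2 difference was −0.11. Mlxipl, which encodes ChREBP, had 2794.4 and 2724.2 in set 5-3 and 3193.2 and 2489.3 in set 1-1, against 4479.1 in the parental line, a difference of −0.68 ± 0.25 (SE, log2, limma adjusted p = 1.0). Mlxip, which encodes MondoA, and Arrdc3 differed between the sets by −0.48 and 0.76 (limma adjusted p = 0.405 and 0.318). Among NADPH oxidases and other sources of oxidants, 4 of 19 genes were tested. Ero1a, an oxidase of the endoplasmic reticulum, had 1386.7 and 1363.6 in set 5-3 and 848.5 and 902.4 in set 1-1, with the parental line at 1042.2 (limma adjusted p = 0.228).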
